A study of Canis lupus familiaris with 30 samples.

Results

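The genes described here are MYC and the partners that share its protein network, namely MAX, MXI1, MXD4 and MNT. They were chosen by name, and each was looked up in the deposited expression matrix through the pairs of Ensembl ID and symbol given with the study. MYC (ENSCAFG00000001086) and MAX (ENSCAFG00000016212) had an ID, so 2 of the 5 genes are described, among 32704 gene IDs in all. MXI1, MXD4 and MNT were not analysed here. Each value below is the expression of 1 gene in a fine needle aspirate of an enlarged lymph node. The aspirates came from 15 dogs with lymphoma, sampled before treatment (initial timepoint) and after 6 weeks of CHOP, which combines cyclophosphamide, doxorubicin, vincristine and prednisone (six-week timepoint). The labels gave 7 dogs as B-cell, 3 as T-cell and 5 as unknown immunophenotype. All dogs received CHOP, there was no untreated arm, and some may have had 1 prednisone injection before the first aspirate. Each dog gave 1 library per timepoint, so the p-values below measure the spread between dogs.

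MYC is a transcription factor that binds DNA only as a dimer with MAX. MAX is the common partner of the network, and it also pairs with the MXD proteins (MXI1 and MXD4 among them), MNT and MGA, which occupy the same E-box sites and repress. MYC-MAX dimers are known to raise genes of ribosome production, nucleotide synthesis and the cell cycle, and MYC is a classic driver of lymphoma through translocation or excess expression.

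The aspirates hold tumour cells together with other cells of the node, and in such bulk samples fewer cells of a type and less RNA per cell cannot be told apart. The levels are FPKM values (fragments mapped to a transcript, scaled by its length and by sequencing depth), and differences are on the log2(FPKM + 1) scale. Library totals ran from 4318394 to 43413353 counts. In 12 libraries of 6 dogs the deposited counts did not follow the FPKM of the same gene ID (Spearman rho across genes 0.083 to 0.115, against 0.872 to 0.983 in the 18 libraries of the other 9 dogs), so FPKM was used throughout. The summed FPKM of PAX5 and CD22, the 2 B-cell markers with an ID, and of 6 T-cell markers set 2 dogs apart. The 2 sums hold different numbers of genes and are not comparable with each other. Dog 029, labelled B-cell, had 447 FPKM of T-cell markers and 63.8 of B-cell markers at the initial timepoint. These were the highest and the lowest such sums among the B-cell dogs. Its B-cell sum still lay above the 1.42 and 4.95 FPKM of T-cell dogs 036 and 028. Dog 038, labelled T-cell, had 36.0 FPKM of T-cell markers and 135 of B-cell markers. The changes of MYC and MAX in B-cell and T-cell dogs, and the differences of MYC, MAX and MGA between these labels, are given with and without the 2 dogs. In the six-week library of dog 033, 64.2% of all FPKM lay in the 20 highest gene IDs, against a median of 36.0% over the 30 libraries. The lowest total, 4318394 counts, was in the six-week aspirate of dog 036.

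MYC was well expressed in most aspirates and varied widely between dogs. Over the 30 libraries its level ran from 4.302 to 38.5 FPKM, with a median of 17.4. In each library MYC stood between the 56.3th and the 90.7th percentile of the gene IDs above 0, with a median at the 83.3th. MAX was higher and steadier, from 16.3 to 50.3 FPKM with a median of 40.5, or the 78.9th to 94th percentile. MYC was below MAX in 29 of 30 libraries. The ratio of MYC FPKM to MAX FPKM had a median of 0.489 and ran from 0.247 to 1.08, the highest being the six-week library of dog 033.

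In B-cell dogs, the initial level of MYC was 13.1 FPKM at the lowest, 20.96 at the median and 36.5 at the highest. At 6 weeks the same dogs ran from 14.6 through 21.7 to 38.5 FPKM. Dogs 003 and 033 were the high ones at first, at 36.5 and 33.8 FPKM, and only dog 003 was still above 30 FPKM at 6 weeks. In T-cell dogs, MYC was 13.4 FPKM in dog 028, 14.09 in dog 036 and 14.05 in dog 038 at the initial timepoint. The 3 values lay together at the low end of the B-cell range and overlapped it only through dog 030, at 13.1 FPKM. At 6 weeks these dogs stood at 17.4, 4.302 and 11.6 FPKM, so that dog 028 was higher than before, dog 038 lower, and dog 036 at the lowest MYC level of the 30 libraries. In the dogs of unknown immunophenotype, MYC went from 20.5 to 19.05 FPKM in dog 024 and from 16.8 to 15.2 in dog 025. It went from 14.9 to 16.7 FPKM in dog 026, from 22.5 to 29.9 in dog 031_032 and from 8.76 to 12.3 in dog 035. This group overlapped the B-cell and T-cell dogs at both timepoints.

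MAX, the obligate partner, showed little separation of the groups. In B-cell dogs it ran from 32.1 through 37.4 to 45.4 FPKM initially and from 21.2 through 36.3 to 50.3 at 6 weeks. T-cell dogs 028, 036 and 038 stood at 42.5, 43.9 and 39.8 FPKM at first and at 43.0, 16.3 and 44.3 at 6 weeks. Dogs 033 and 036 were alone below 29 FPKM, both at 6 weeks only. In the dogs of unknown immunophenotype, MAX lay between 33.7 and 50.0 FPKM initially and between 32.8 and 46.7 at 6 weeks.

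**Figure D1:**
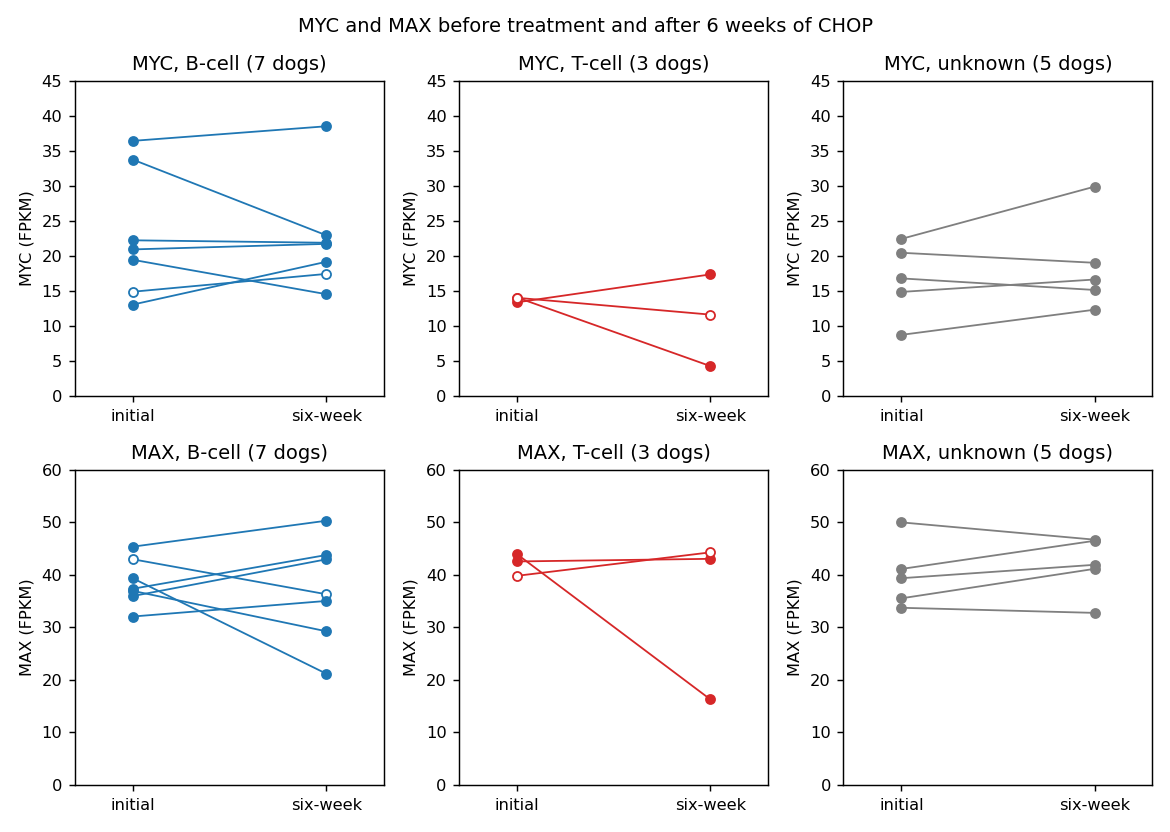
MYC (upper row) and MAX (lower row) in FPKM at the initial and six-week timepoints, with 1 line per dog and 1 column of panels per labelled immunophenotype. Open circles mark dogs 029 and 038, whose B-cell and T-cell markers set them apart from other dogs of their label. MYC spans 8.76 to 36.5 FPKM at first, and the lines that drop to 4.302 (MYC) and 16.3 (MAX) FPKM belong to dog 036.

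The first question was whether MYC or MAX changed between the initial and six-week timepoints in the same dogs. MYC was higher at 6 weeks in 8 of 15 dogs and lower in 7, and MAX was higher in 9 and lower in 6. The mean change of MYC was -0.05 on the log2 scale (SE 0.127, limma adjusted p = 0.903), with a 95% interval from -0.32 to 0.22, or 0.803-fold to 1.16-fold. The mean change of MAX was -0.10 (SE 0.116, limma adjusted p = 0.738), with an interval from -0.35 to 0.14. By exact permutation of the signs of the 15 changes (two-sided), p was 0.765 for MYC and 0.450 for MAX. No change of the mean was detected within these intervals. Limma called 0% of the 14257 genes tested in this comparison (adjusted p under 0.05), although 12.8% had an unadjusted p under 0.05.

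Single dogs moved more than the mean. The changes of MYC ran from -1.51 in dog 036 to 0.52 in dog 030, with a median of 0.05 and an SD of 0.508. Those of MAX ran from -1.38 in dog 036 to 0.25 in dog 037, with a median of 0.09 and an SD of 0.455. Without dog 036 the mean change of MYC was 0.06 instead of -0.05, so that its sign rested on that dog. In dog 036, the summed FPKM of B-cell markers went from 1.42 to 38.1, that of T-cell markers from 785 to 220 and that of 4 macrophage markers (CSF1R, MRC1, C1QA and C1QB) from 7.40 to 87.8. The MYC ID held 53 reads in this six-week library. The part of these shifts in the lower MYC was not tested.

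Within the immunophenotypes the question was whether the change depended on the label. In the 7 B-cell dogs MYC changed by -0.01 (95% interval -0.39 to 0.37, limma adjusted p = 0.991), with 4 dogs higher and 3 lower. MAX changed by -0.10 (-0.46 to 0.26) in these dogs. In the 3 T-cell dogs MYC changed by -0.47 (-1.05 to 0.11, limma adjusted p = 0.337) and MAX by -0.40 (-0.95 to 0.14). Both signs turned when dog 036 was left out, to 0.05 for MYC and 0.08 for MAX. In the 5 dogs of unknown immunophenotype MYC changed by 0.15 (-0.30 to 0.60) and MAX by 0.07 (-0.36 to 0.49). The change of MYC in T-cell dogs minus that in B-cell dogs was -0.46 (-1.15 to 0.24, limma adjusted p = 0.488). The change of MAX differed by -0.31 (-0.96 to 0.35). Without dogs 029 and 038, MYC changed by -0.05 in B-cell and -0.58 in T-cell dogs, and MAX by -0.07 and -0.68. The difference in change was then -0.53 for MYC and -0.61 for MAX (limma adjusted p = 0.533 and 0.423). Limma called 0% of genes in each of these 4 comparisons, while 3.84% (B-cell), 20.1% (T-cell), 4.56% (unknown) and 15.3% (difference in change) had an unadjusted p under 0.05. Over 3 pairs the exact permutation test cannot go below 0.25, and over 5 pairs not below 0.0625.

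The next question was whether MYC differed between T-cell and B-cell dogs. MYC was lower in the T-cell dogs at both timepoints, and neither difference passed the threshold over all genes. At the initial timepoint the means were 13.9 ± 0.381 FPKM (SD, n = 3) in T-cell and 22.99 ± 8.92 FPKM (SD, n = 7) in B-cell dogs. The log2 difference was -0.61 (95% interval -1.27 to 0.05, limma adjusted p = 0.261, exact permutation p = 0.0917). At 6 weeks the means were 11.1 ± 6.56 and 22.3 ± 7.72 FPKM, and the difference was -1.07 (-1.84 to -0.29, limma adjusted p = 0.539, exact permutation p = 0.0167). The smallest p that this exact test allows is 0.00833, and 16 exact tests were made of MYC and MAX without adjustment. The same exact tests were made of each of MGA, MLX and MYCL (below), also without adjustment. The six-week difference was -0.56 without dog 036 and -1.45 without dog 028. Without dogs 029 and 038 it was -0.70 at first and -1.23 at 6 weeks, with limma adjusted p = 0.180 and 0.310. Within the 9 dogs with matching counts, which held 2 T-cell dogs, MYC differed by -0.90 at first and -1.56 at 6 weeks (limma adjusted p = 0.133 and 0.742). Within the 6 other dogs it differed by -0.24 and -0.15 (limma adjusted p = 0.916 and 0.960), with a lone T-cell dog assumed to vary like the other groups. Limma called 0.344% of the 14257 genes at the initial timepoint and 0% at 6 weeks. An unadjusted p under 0.05 was found for 21.8% and 8.73% of them.

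MAX did not follow MYC in this comparison. Its difference between T-cell and B-cell dogs was 0.13 at first (-0.20 to 0.46) and -0.18 at 6 weeks (-0.83 to 0.48), and the second turned to 0.28 without dog 036. Without dogs 029 and 038 the differences of MAX were 0.19 and -0.41. Within the 9 dogs with matching counts they were 0.09 and -0.33, and within the 6 others 0.19 and 0.17. The ratio of MYC to MAX was 0.315, 0.321 and 0.353 in the 3 T-cell dogs at first. In the B-cell dogs it ran from 0.347 to 0.859 with a median of 0.561, so the groups overlapped by 1 pair of values. Between dogs of unknown immunophenotype and B-cell dogs at the initial timepoint, MYC differed by -0.42 (-0.98 to 0.14, limma adjusted p = 0.993) and MAX by 0.04 (-0.24 to 0.32). Limma called 0% of genes there, with 2.95% at an unadjusted p under 0.05.

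**Figure D2:**
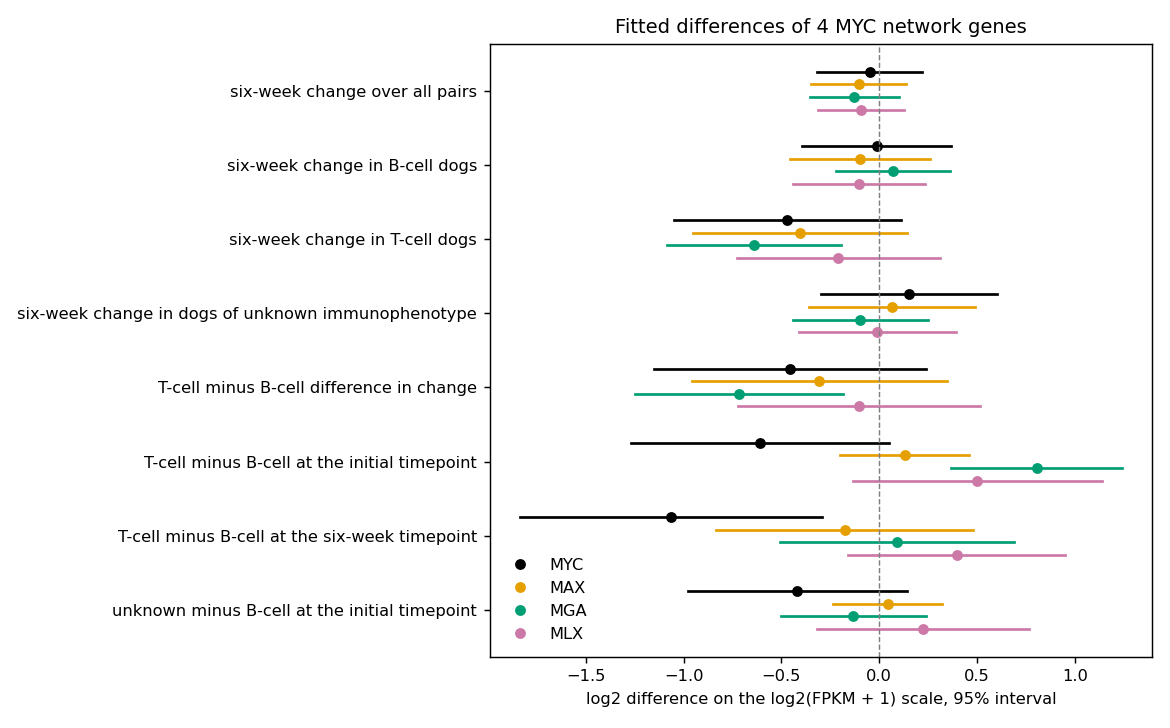
Differences fitted by limma for MYC, MAX, MGA and MLX in the 8 comparisons, on the log2(FPKM + 1) scale, with 95% intervals as lines and 0 as the dashed line. The interval of MYC excludes 0 only for T-cell minus B-cell at 6 weeks (-1.84 to -0.29), and that of MGA excludes it in 3 comparisons. None passed the adjusted threshold.

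Of 8 further genes of the network, 3 had an ID. MGA, a large MAX-binding repressor, had the largest difference between T-cell and B-cell dogs before treatment among the 4 network genes in the limma fit. It measured 70.1, 67.1 and 53.1 FPKM in dogs 028, 036 and 038, against 28.6 to 54.6 FPKM in the B-cell dogs. The highest B-cell value was that of dog 029, and the others were below 39 FPKM. The log2 difference was 0.80 (95% interval 0.37 to 1.24, limma adjusted p = 0.0680, exact permutation p = 0.0167). Without dogs 029 and 038 it was 1.03 with limma adjusted p = 0.00234, on 2 T-cell dogs. That fit called 24.5% of 14000 genes. The 2 dogs were picked by B-cell and T-cell markers in these same libraries, so this p-value is not independent support. They also held the highest B-cell and the lowest T-cell level of MGA. The adjusted p of MGA ran from 0.00234 to 0.661 over the alternatives, the highest within the 6 dogs whose counts do not match. At 6 weeks MGA stood at 30.1 FPKM in dog 036 and 32.6 in dog 038, both lower than before, and at 64.8 FPKM in dog 028. The change in T-cell dogs was -0.64 (-1.09 to -0.20, limma adjusted p = 0.141), lower in 3 of 3 dogs. It differed from that in B-cell dogs by -0.71 (limma adjusted p = 0.235, exact permutation p = 0.0417). Without dogs 029 and 038 the difference in change was -0.69 (limma adjusted p = 0.349). At 6 weeks the level of MGA differed between the labels by 0.09, or by 0.33 without these dogs.

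MLX, the MAX-like partner of the glucose-sensing MLXIP and MLXIPL, ran from 37.1 to 133 FPKM. It was 87.1, 133 and 37.1 FPKM in T-cell dogs 028, 036 and 038 at first, against 41.2 to 68.5 FPKM in B-cell dogs. The T-cell values thus lay on both sides of the B-cell ranges, with dog 038 lowest of all 15 dogs. The log2 difference was 0.50 (-0.13 to 1.14, limma adjusted p = 0.332). It was 0.99 without dogs 029 and 038 (limma adjusted p = 0.0122), with only dogs 028 and 036 left as T-cell. That fit called 24.5% of 14000 genes, with the same choice of dogs from these libraries. MYCL, a MYC paralog, was at 0.142 to 2.41 FPKM with a mean of 0.781, under the minimum mean of 1 FPKM, and was not in the limma fit. It was higher at 6 weeks in 7 of 7 B-cell dogs, from a mean of 0.681 to 1.08 FPKM (exact permutation p = 0.0156, the smallest that 7 pairs allow). In the B-cell libraries with matching counts its ID held only 10 to 55 reads, and in dog 027 it went from 0.393 to 0.409 FPKM. Without the filter on low values, the median change of all genes in B-cell dogs was 0.097, against 0.004 with it. The share of equally low genes higher in all 7 dogs was not counted. In the T-cell and unknown dogs MYCL was higher in 2 of 3 and 2 of 5.

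MYC kept much of its rank between a dog's 2 libraries. Across the 15 dogs, the initial and six-week levels of MYC on the log2(FPKM + 1) scale had Pearson's r = 0.643 (permutation p = 0.0112, adjusted 0.0281) and Spearman's rho = 0.746 (permutation p = 0.00218, adjusted 0.0109). Adjustment was by Benjamini-Hochberg over the 5 relations computed. Without dogs 003 and 033, the farthest from the median, r was 0.5003. Within the 9 dogs with matching counts r was 0.776, within the 6 other dogs 0.883 and within the 7 B-cell dogs 0.737. MAX showed no such relation that could be detected, with r = 0.089 (permutation p = 0.752) and rho = 0.436 (permutation p = 0.107). Its levels spanned a narrower range.

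The relation of MYC and MAX across dogs rested on single libraries. At the initial timepoint r was 0.260 (permutation p = 0.349) and rho 0.257 (permutation p = 0.353). At 6 weeks r was 0.606 (permutation p = 0.0271, adjusted 0.0452) and rho 0.336 (permutation p = 0.220), and without dogs 036 and 003 r was -0.078. For the changes r was 0.850 (permutation p = 0.00081, adjusted 0.00405) and rho 0.496 (permutation p = 0.0624), and without dogs 036 and 033 r was 0.362. Among the 9 dogs with matching counts, which include both, r of the changes was 0.908, and among the other 6 it was 0.054. The relation of the changes thus rested on dogs 033 and 036.

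**Figure D3:**
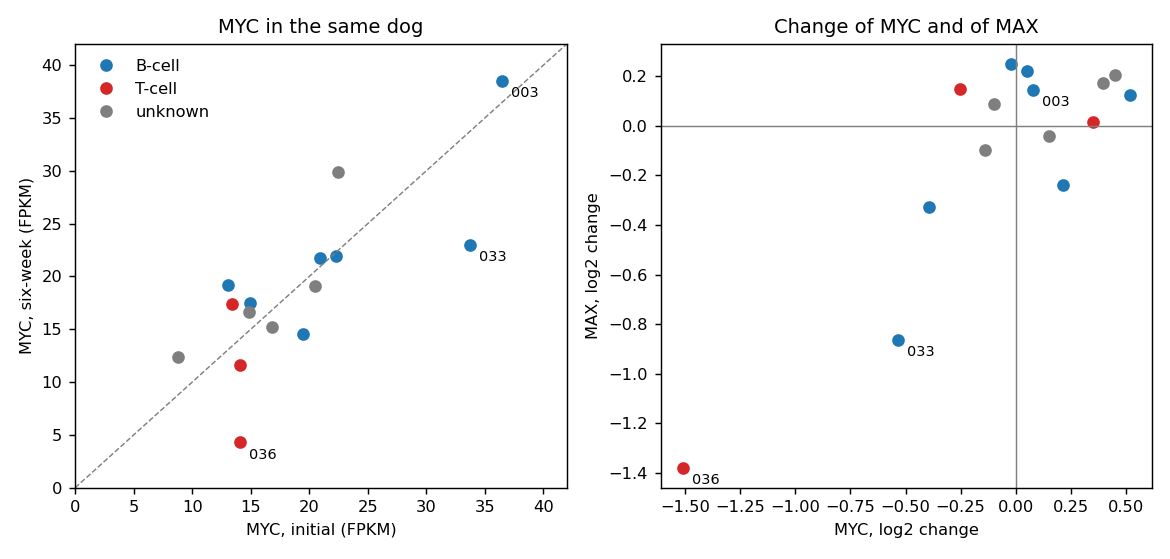
Left, MYC at 6 weeks against MYC at the initial timepoint in FPKM, 1 point per dog coloured by label, with equality as the dashed line. Right, the log2 change of MAX against that of MYC, where dogs 033 and 036 stand apart at the lower left (MYC -0.54 and -1.51) and the other changes of MAX lie between -0.33 and 0.25.

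The genes whose levels ran most like MYC were named by the highest Pearson's r over the 15 initial libraries, among 3922 genes with a symbol and a mean above 1 FPKM. They were NEB (r = 0.827), IL17RB (0.775), NIPSNAP3A (0.755), GLMP (0.740) and TRMT1 (0.738). NEB encodes the muscle protein nebulin, IL17RB a receptor subunit for interleukin-25 and TRMT1 a tRNA methyltransferase. At 6 weeks, in libraries that the choice did not use, their r with MYC was 0.435, 0.705, 0.840, 0.459 and 0.610. MAX ranked 1022nd in the same list. The points share dog, depth and cell makeup, and these values are descriptions.

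The remaining question was whether genes around MYC moved with time or immunophenotype. A list of 34 textbook MYC-induced genes had 15 members with an ID, among them ODC1 (polyamine synthesis), NCL and NPM1 (nucleolar proteins), CAD (pyrimidine synthesis) and CDK4 (cell cycle kinase). Over all pairs, 15 of 15 had a negative log2 change, with a median of -0.24 and a range from -0.45 to -0.09, against a median of -0.01 over all genes tested. None passed the threshold in limma. NPM1 changed by -0.45 (adjusted p = 0.345), CDK4 by -0.31 (adjusted p = 0.351) and PA2G4 by -0.31 (adjusted p = 0.407) in the same limma fit. Of 2 repressed targets with an ID, the cell cycle inhibitor CDKN1A changed by 0.35 (limma adjusted p = 0.298) and the stress gene GADD45A by 0.46 (limma adjusted p = 0.442).

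The direction of the induced targets differed between the 2 sets of dogs that the count table separates. In number and in mix of immunophenotype labels, the 6 dogs without matching counts equal the study's cluster with shorter progression-free survival. The 9 others equal its cluster with longer survival. The sample labels do not name the clusters, so whether the sets are the clusters was not tested. If they are, set and outcome cannot be told apart here. In the 9 dogs whose counts match their gene IDs, 15 of 15 had a negative FPKM change, with a median of -0.52. The median over all genes tested was -0.03 there. In the 6 other dogs, 1 of 15 was negative and the median was 0.18, against 0.03 over all genes tested. NPM1, the most negative in the 9 dogs, changed by -0.76 there and by 0.01 in the 6 dogs. NOP2, a nucleolar RNA methyltransferase, changed by -0.56 in the former and by 0.36 in the latter. MYC itself changed by -0.25 (SE 0.179, limma adjusted p = 0.514) in the 9 dogs and by 0.25 (SE 0.0974, limma adjusted p = 0.829) in the 6. The difference between the sets was not tested, and no gene passed the threshold in either. Of 9 proliferation markers, 9 were negative in the 9 dogs (median -0.74) and 5 in the 6 dogs (median -0.01). Markers of other cells moved in the same libraries. The summed FPKM of the 4 macrophage markers had a median of 25.2 (7.40 to 75.9) at first and 58.9 (4.96 to 305) at 6 weeks in the 9 dogs, higher in 6. In the 6 dogs it was 28.7 (7.21 to 98.4) and 25.4 (18.5 to 85.8), higher in 3. The summed B-cell markers had medians of 123 and 64.5 FPKM in the 9 dogs, higher at 6 weeks in 3. In the 6 dogs they stood at 77.5 and 54.4 FPKM, higher in 0. The part of these shifts was not tested. Without dogs 033 and 036 all 15 targets were still negative over the pairs, with a median of -0.21.

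**Figure D4:**
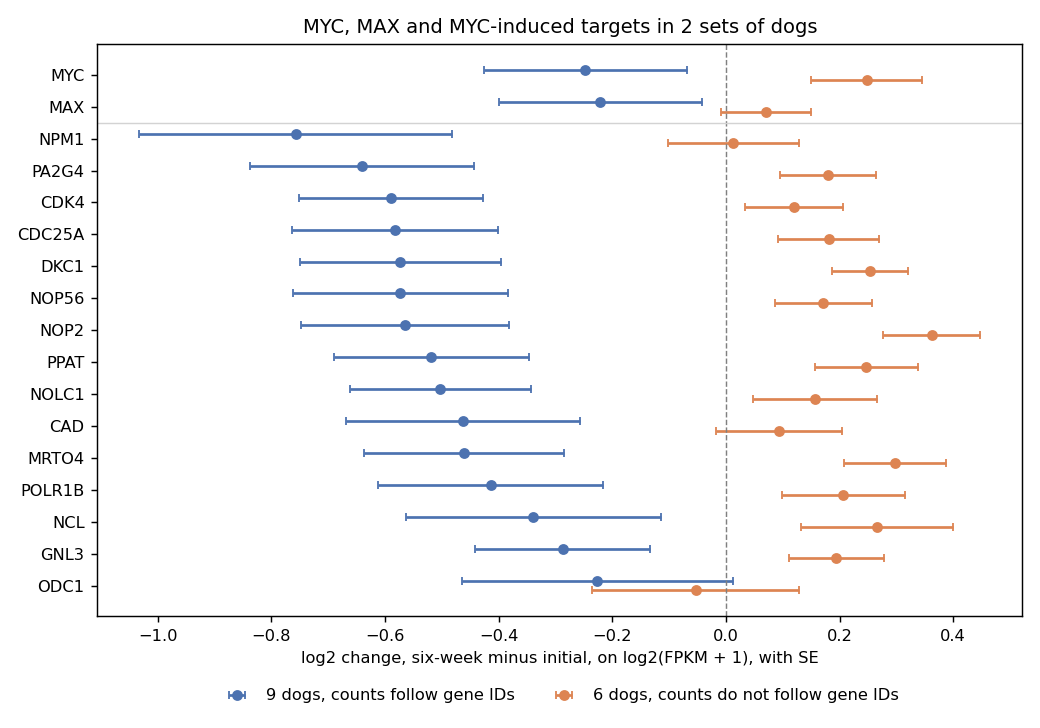
Log2 change from the initial to the six-week timepoint with its SE, on log2(FPKM + 1), for MYC, MAX and 15 MYC-induced targets, in the 9 dogs whose counts follow their gene IDs (blue) and the 6 dogs whose counts do not (orange). In the 9 dogs all 15 targets lie below 0, and in the 6 dogs 14 lie above 0 and ODC1 just below (-0.05).

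Between the labels, all 15 induced targets were lower in T-cell than in B-cell dogs at both timepoints, with medians of -0.61 and -0.83 against -0.04 and -0.11 over all genes. At the initial timepoint ODC1 differed by -1.42 (SE 0.309) and NCL by -1.36 (SE 0.300), each with limma adjusted p = 0.0552. ODC1 was 25.5 to 45.2 FPKM in T-cell dogs and 52.2 to 147 in B-cell dogs, which did not overlap. The share of all genes without overlap between these groups was not counted. In this comparison 21.8% of the 14257 genes had an unadjusted p under 0.05 in limma. NCL was 135 to 302 FPKM in T-cell dogs and 297 to 678 in B-cell dogs, overlapping by 1 pair of values. At 6 weeks CAD differed by -1.16, POLR1B, a subunit of RNA polymerase I, by -1.09 and NCL by -0.97, each with limma adjusted p above 0.5. Without dogs 029 and 038 the medians were -1.03 and -0.79. Within the 9 dogs with matching counts 15 of 15 were lower at both timepoints, and within the 6 others 11 and 12 of 15. Macrophage markers were lower in T-cell dogs for 3 of 4 at first (median -0.72) and higher for 4 of 4 at 6 weeks (median 1.11), and their part was not tested. In the dogs of unknown immunophenotype, 15 of 15 were higher than in B-cell dogs at first, with a median of 0.33 against -0.06. In that contrast 6 of 6 T-cell markers were lower (median -1.21), 4 of 4 macrophage markers were lower (median -0.59) and 7 of 9 proliferation markers were higher (median 0.24). Dog 029, with the highest initial sums of T-cell and macrophage markers among B-cell dogs, was kept in these values. Median summed T-cell markers were 67.6 FPKM in B-cell and 47.6 in unknown dogs, and macrophage markers 27.5 and 23.7. The part of these markers was not tested. The difference of MYC there was -0.42, opposite in sign to the targets. Rescaling FPKM to a common sum left 13 of 15 positive there.

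Across dogs, each induced target was set against MYC as a description. Pearson's r with MYC was positive for 15 of 15 targets at the initial timepoint (median 0.452, 0.286 to 0.611), where 47.9% of all genes were positive. At 6 weeks it was positive for 15 of 15 (median 0.499), against 53.4% of all genes. For the changes 14 of 15 were positive (median 0.409), against 62.5% of all genes. The 15 points in each case share libraries, depth and cell makeup.

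Coactivators and partners of turnover and repression had few members with an ID, and none passed the threshold in limma in any comparison. Of 6 coactivators, 5 had a negative change over all pairs (median -0.20), led by the acetyltransferase KAT2A at -0.39 (limma adjusted p = 0.316). In T-cell dogs 6 of 6 were negative (median -0.55), led by TRRAP, the scaffold of MYC's acetyltransferase complexes, at -1.06 (SE 0.280, limma adjusted p = 0.119). The MYC cofactor WDR5 was at -0.48 in these dogs. In the same comparison markers of other cells were positive for 4 of 4 of macrophages (median 2.02), 3 of 3 of plasma cells (median 1.45) and 4 of 4 of stroma (median 1.06). The summed macrophage markers were higher at 6 weeks in 3 of 3 T-cell dogs, from 7.21 to 75.9 FPKM at first and from 19.3 to 305 FPKM later. The part of these markers in the values was not tested. AURKA, a kinase that stabilises MYC proteins, and SKP2, a ubiquitin ligase subunit that acts on MYC, changed by -0.36 and -0.27 over all pairs. The corepressor deacetylases HDAC2 and HDAC1, recruited by MXD and MNT dimers, changed by -0.25 and -0.09. Proliferation markers were negative for 9 of 9, with MCM2 at -0.47, PCNA at -0.45 and TOP2A at -0.68.

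In the 6 dogs the deposited counts under the MYC and MAX IDs stood apart from the FPKM, and they may not be reads of these genes. In the 18 libraries with matching counts, the MYC ID held 53 to 2683 reads, or 12.3 to 108 CPM (counts scaled to a library of 1000000) with a median of 50.9. In the 12 other libraries it held 1902 to 11380 reads, or 267 to 429 CPM with a median of 306. The FPKM of MYC had almost equal medians in the same sets of libraries, 18.1 and 17.4. For MAX the CPM had medians of 44.5 and 22.4, and the FPKM 40.5 and 40.2. A comparison of the sets by counts would thus place MYC higher and MAX lower in the 6 dogs, while the FPKM of both overlapped. The study, which tested counts, reported MYC as up-regulated in its cluster with shorter progression-free survival. Whether the 6 dogs are that cluster was not tested.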

How the data were processed

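RNA of 30 aspirates from 15 dogs was sequenced as single reads of polyadenylated RNA. The submitters' notes name HISAT2 2.1.0, StringTie 1.3.3 and CanFam3.1. The deposited FPKM values carry the authors' scaling for transcript length and depth and no log. The deposited counts are whole reads per gene ID and not normalised. Fits on counts used only the 9 dogs where they follow the FPKM of the same ID (Spearman rho above 0.5). Counts of the 6 other dogs are given only as library totals and as a description of the MYC and MAX IDs.

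Members and gene lists were chosen with earlier results of these data known. Symbols came from the study's pairs of ID and symbol (5086 IDs), and no coordinates or sequences were used. Groups were taken from the labels, and pairs by the dog number in the sample names. Samples 031 and 032, left over, made 1 pair. To check this, deviations from the timepoint means were correlated across genes within each dog. The median correlation was 0.601, the lowest -0.114, that of 031 and 032 0.344, and 14 of 15 dogs were above 0.1. In 9 of 15 dogs the initial library correlated best with its own six-week partner. The check therefore does not settle single pairs, that of 031 and 032 among them.

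The main test was limma 3.58.1 in R 4.3.3 on log2(FPKM + 1), with a trended prior, the dog as a block for changes over time, genes with a mean above 1 FPKM (14257), and Benjamini-Hochberg adjusted p under 0.05. Exact permutation tests (two-sided) and correlations with 100000 resamples used Python 3.11.15 and NumPy. Named genes were MYC and MAX, the further network genes, up to 3 genes of each list with the smallest p, and the 5 genes most like MYC. Of 12 planned relations of MYC with partners only those with MAX could be made, and 2 relations between timepoints were added after the data were examined. On simulated data with 14257 genes, the change over all pairs was recovered for 89% of genes changed 2-fold and 99% of those changed 4-fold. The initial difference of T-cell and B-cell dogs was recovered for 21% and 70%. The simulation drew each gene independently, without shifts shared by the genes of a library. Its changed genes all had a mean log2(FPKM + 1) above 2. Recovery in the real libraries was not measured. Alternatives were a pseudocount of 0.1, no filter, 2 rescalings, leaving out dogs, no block, and edgeR 4.0.16 or DESeq2 1.42.0 on counts.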

Additional observations from a re-analysis of the deposited data

Results flagged for a closer look

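Of 30 groups of values tested for a sample far from the others, 3 were set apart, where chance alone gives about 1 in 20. MYC in the six-week library of B-cell dog 003 was 38.5 FPKM, against 22.98 FPKM for the next dog. The initial level of MGA in dog 029, labelled B-cell, was 54.6 FPKM, against 38.6 FPKM for the next, and the T-cell markers of this dog were high as given above. The change of MYCL in B-cell dog 034 was 0.84 on the log2 scale, from 0.902 to 2.41 FPKM. The other B-cell dogs changed by at most 0.27.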

How the results depend on the processing

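For MYC, every comparison stayed on its side of the threshold under each alternative run. Its change over all pairs turned from -0.05 to 0.013 with a common upper quartile, to 0.10 without dogs 033 and 036 and to 0.25 in the 6 dogs whose counts do not match (the last 2, and the labels compared within each set, chosen after the data were examined). Leaving out 1 dog gave -0.090 to 0.055. In B-cell dogs it turned to 0.047 with a common upper quartile and 0.074 without dogs 033 and 036, and ran from -0.10 to 0.074 over single dogs left out. In T-cell dogs it ran from -0.88 to 0.051, and was 0.051 without dogs 033 and 036. The difference in change ran from -0.87 to 0.064.

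Without dogs 033 and 036, MAX turned to 0.052 (all pairs), 0.030 (B-cell), 0.083 (T-cell), 0.053 (difference in change) and 0.16 (T-cell minus B-cell at 6 weeks), and MLX to 0.21 (T-cell) and 0.33 (difference in change). In the 6 dogs MAX was 0.070 and MLX 0.026, and MAX for T-cell minus B-cell at 6 weeks was 0.17. In the 9 other dogs MGA was -0.19 there. Rescaled to a common sum, MAX for unknown minus B-cell was -0.050, and MGA -0.016 (B-cell change) and -0.079 (T-cell minus B-cell at 6 weeks). With a common upper quartile, the change of MLX in unknown dogs was 0.013. Over single dogs left out, MAX ran from -0.16 to 0.030 in B-cell dogs, -0.68 to 0.083 in T-cell dogs, -0.58 to 0.18 for the difference in change, -0.039 to 0.10 for unknown minus B-cell and -0.41 to 0.28 for T-cell minus B-cell at 6 weeks. MGA ran from -0.015 to 0.14 in B-cell dogs and from -0.25 to 0.29 between labels at 6 weeks. MLX ran from -0.16 to 0.016 (B-cell), -0.50 to 0.21 (T-cell), -0.064 to 0.078 (unknown) and -0.39 to 0.32 (difference in change).

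Genes called over all pairs were 0 with limma, 3054 without a filter, 3832 with DESeq2 and 0 with edgeR on counts of 9 dogs (6687 unadjusted), where MYC was -0.46 (adjusted p = 0.170). The median of all genes was 0.13 in edgeR and 0.63 in DESeq2. In T-cell dogs 13 were called with a pseudocount of 0.1, 1 with a common sum and 0 to 1509 over single dogs left out, the most without dog 028. The difference in change gave 4 with a pseudocount of 0.1 and 0 to 613. T-cell minus B-cell gave 49 initially, 6 without a filter, 22 with a common sum, 3426 without dogs 029 and 038, 1 without dogs 033 and 036, 15 within the 9 dogs and 0 to 2308, and at 6 weeks 8 within the 6 dogs, 11 without dogs 029 and 038 and 0 to 5. Unknown minus B-cell gave 0 to 1. Without the replicate block, the change of MYC over all pairs was -0.05 and no call of the network genes changed. The cause of these shifts was not tested. MYC rested on as few as 53 reads (dog 036 at 6 weeks), and MYCL lay under the filter.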
